A study of Mus musculus with 13 samples.

Results

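CD4+ conventional T (Tconv) cells were compared with CD8+ Tconv cells from B16-F10 melanomas in which regulatory T (Treg) cells had been left in place. The comparison took the CD4 and CD8 libraries of PBS-treated animals, 4 of the 13 libraries of the series, and 12667 of 12963 listed genes, those reaching 10 normalized reads in 2 or more of the 13 columns. All mice carried the Foxp3-EGFP-DTR allele, in which cells that transcribe Foxp3 also make EGFP and a human receptor for diphtheria toxin, and all carried a subcutaneous B16-F10 tumor, a transplanted mouse melanoma line of the same strain background. Mice were adults of both sexes, per the study's methods. CD4 PBS (n = 2) and CD8 PBS (n = 2) were Tconv cells of mice given saline, and both carried replicate numbers 2 and 3. CD4 DTx (n = 3) and CD8 DTx (n = 3) were the same populations from mice given diphtheria toxin (DTx), which kills cells that express the receptor and so depletes Treg cells. Treg PBS (n = 3) were Treg cells of saline-treated mice. The labels name a CD4+ T cell enrichment ahead of the sort for every library, those of CD8+ cells included, and do not say whether a library came from 1 animal or a pool. The study describes the replicates as biological and isolated on separate days, neither it nor the labels tie a replicate number to a day, and p-values measure the spread between these libraries.

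CD4+ and CD8+ T cells arise from a common precursor in the thymus. Commitment to the CD4 lineage requires ThPOK, the factor encoded by Zbtb7b, whereas Runx3 silences Cd4 and Zbtb7b in CD8 cells. CD4 Tconv cells recognise peptide on MHC class II and act mainly through cytokines and CD40 ligand, and CD8 T cells recognise peptide on MHC class I and kill target cells with perforin and granzymes. Within tumors, Treg cells restrain both populations.

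Transcripts that define the lineages matched the labels. Values are normalized reads, read counts divided by a size factor for each library, and are given for replicate 2 and then replicate 3 unless stated. Cd4 was at 19673 and 17780 in CD4 PBS against 2.43 and 0 in CD8 PBS. The CD8 values rested on 2 reads in all, and the ratio of the means was 14731, with a 95% counting interval of 4078 to 121640. Cd8a was at 31.4 and 26.4 in CD4 PBS against 23475 and 27907 in CD8 PBS, a log2 difference (CD4 minus CD8) of -9.75 (SE 0.92, adjusted p = 0.000342). Cd8b1, the second chain of the coreceptor, was at 529 and 589 against 40376 and 48228. Foxp3 was 0 in both CD4 PBS libraries and at 9.72 and 0 in CD8 PBS, compared with 1178, 1856 and 1896 in replicates 1, 2 and 3 of Treg PBS. In the DTx libraries, replicates 1 to 3, Cd8a was at 103, 711 and 1302 in CD4 DTx, Cd8b1 at 267, 1641 and 2360, and Cd4 at 413, 0 and 40.4 in CD8 DTx.

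Recovered reads, the whole counts behind the normalized values, came to 15947556 and 34140486 in CD4 PBS against 17959205 and 16920875 in CD8 PBS. A floor of 3 reads corresponded to between 1.98 and 4.10 normalized reads over the 13 libraries. Sex followed the replicate number in every group, and immediate early gene levels followed it in all PBS groups, Treg PBS included, but not in DTx. Xist was 0 and Ddx3y present in replicate 3 of every group, and the reverse held in all other libraries. The 27 immediate early and stress genes summed to 130837 and 408627 in CD4 PBS against 102089 and 381932 in CD8 PBS, so that replicate 3 was higher in both. In replicates 1 to 3 they summed to 150378, 110391 and 125648 in CD4 DTx and to 127061, 117620 and 101152 in CD8 DTx. In the same order Treg PBS held 129652, 128393 and 347927, highest in replicate 3. Across all tested genes, libraries of CD4 PBS and CD8 PBS correlated at a Pearson r of 0.896 to 0.931 on the log2 scale, close to the correlation of the 2 CD4 PBS libraries with each other (0.930) and of the 2 CD8 PBS libraries (0.941).

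CD8 PBS replicate 2 carried more transcripts of natural killer (NK) cells and of gamma-delta or NKT cells than CD8 PBS replicate 3. All 10 NK cell markers were higher in it, 8 of them by over 2-fold, and the list summed to 16354 and 5926 in CD8 PBS against 2372 and 1820 in CD4 PBS. These CD8 PBS sums include Prf1 (5663 and 3488) and Eomes (1804 and 1678), which CD8 T cells also express. Ncr1, which encodes the NK receptor NKp46, was at 956 in CD8 PBS replicate 2 and at 25.3 in replicate 3, with 38.3 and 30.4 in CD4 PBS. Klrb1c, encoding NK1.1, was at 2113 and 217 in CD8 PBS. All 10 gamma-delta and NKT markers were over 2-fold higher in CD8 PBS replicate 2. The 10 summed to 5624 and 1294 in CD8 PBS and to 578 and 97.8 in CD4 PBS. Zbtb16 and Sox13, factors of NKT and gamma-delta T cells, were at 69.3 and 128 in CD8 PBS replicate 2 and 0 in the other 3 PBS libraries. Ncr1, Sox13 and Zbtb16 were singled out after their values were seen. In bulk libraries, fewer cells of a type and less RNA per cell cannot be told apart, and the part of these transcripts in the differences below was not tested. Where a gene or list described below lost its call without this library, that is stated beside it.

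**Figure D1:**
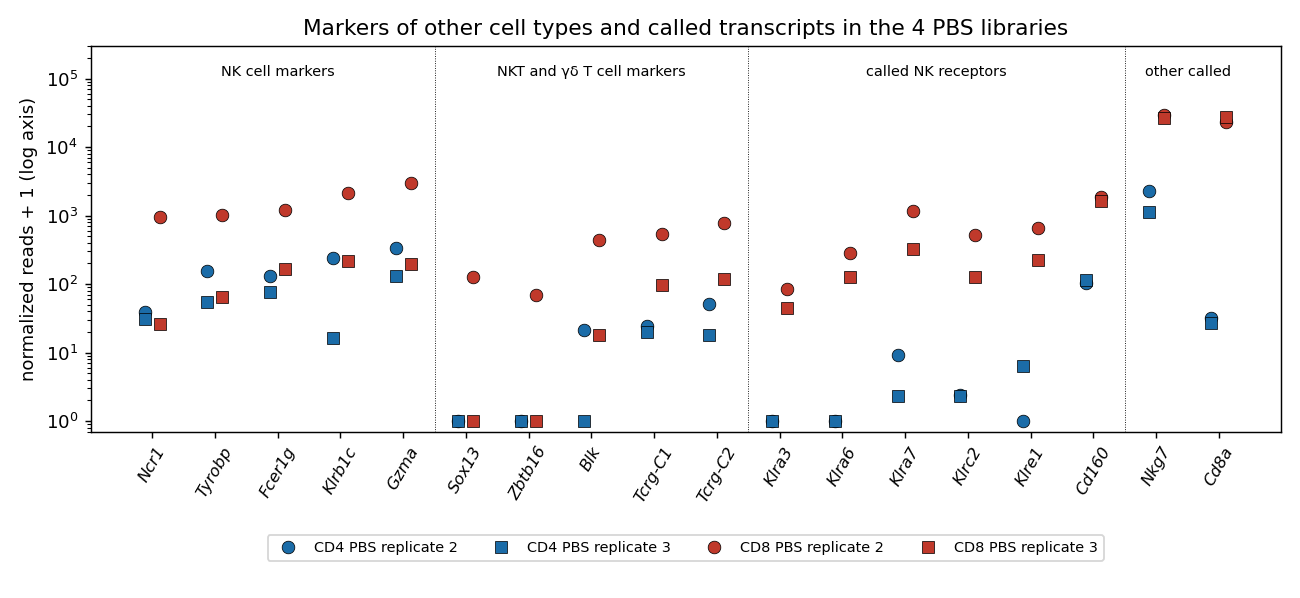
Marker genes of NK cells and of NKT and gamma-delta T cells, called NK receptors, Nkg7 and Cd8a (horizontal axis) in the 4 PBS libraries, as normalized reads + 1 on a log axis, with blue for CD4 PBS, red for CD8 PBS, circles for replicate 2 and squares for replicate 3. CD8 PBS replicate 2 lies above replicate 3 for every marker drawn, by 956 against 25.3 for Ncr1, whereas Cd160, Nkg7 and Cd8a are close in the CD8 libraries.

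With all 4 libraries, most genes that differed between the lineages were higher in CD8 PBS. At a Benjamini-Hochberg adjusted p under 0.05 and a change of over 4-fold, 115 of the 12667 genes tested differed (0.908%), 21 of them higher in CD4 PBS (0.166%) and 94 higher in CD8 PBS (0.742%). At an unadjusted p under 0.05, 827 genes passed (6.53%), and the median log2 difference over all genes was 0. Called genes had a median absolute log2 difference of 4.82. In 7 of the 21 CD4-high and 26 of the 94 CD8-high genes the lower group was at 0 in both libraries. The libraries of the groups did not overlap for any of the 115 genes. Among all tested genes, both CD4 PBS libraries lay above both CD8 PBS libraries for 20.7%, and both CD8 PBS libraries above both CD4 PBS libraries for 21.7%. Taken within replicate 2 and within replicate 3 separately, 18 of the 21 and 86 of the 94 genes differed by over 4-fold in both. The genes were called on these same libraries, so the lack of overlap and these counts follow in part from the choice.

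These counts depended on single libraries. Without CD8 PBS replicate 2, 57 genes were called, 32 CD4-high and 25 CD8-high, so that the CD8 side no longer held most of them, and 14 of the original 21 and 24 of the original 94 were still called. Without CD8 PBS replicate 3, 112 were called, 15 CD4-high and 97 CD8-high. The CD4-high count was 13 without CD4 PBS replicate 2 and 11 without CD4 PBS replicate 3. Among the 94 CD8-high genes, 29 were over 2-fold higher in CD8 PBS replicate 2 than in replicate 3 and 1 was over 2-fold lower, compared with 11.03% and 4.524% of all tested genes. On the recovered reads, edgeR called 79 genes (0.624%), which included 12 of the 21 and 64 of the 94, and DESeq2 called 227 (1.79%), which included 19 and 91.

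Of 16 lineage factors, Zbtb7b alone was called, CD4-high, beside 0.166% of all tested genes. It was at 1004 and 1314 normalized reads in CD4 PBS against 15.8 and 0 in CD8 PBS, with a log2 difference of 8.13 (SE 1.03, adjusted p = 0.00207). Both CD4 libraries were far above both CD8 libraries, and Zbtb7b was called with either CD8 PBS library left out. Runx3 was at 1546 and 1688 in CD4 PBS against 2800 and 2939 in CD8 PBS, a log2 difference of -0.83 that did not pass (adjusted p = 0.358). The groups did not overlap, but the ratio of the means was 1.78. Ets1, Tcf7, Satb1 and Lef1, the most abundant factors of the list, had log2 differences of 0.59 to 0.78, none past the threshold. Tcf7, the factor TCF-1 of naive and memory T cells, was at 51745 and 67509 against 31708 and 38786. The median log2 difference over the 16 genes was 0.42.

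Cytotoxic effector genes that were called were higher in CD8 PBS. Of 20 tested, 3 were called, all CD8-high, beside 0.742% of all tested genes, and 10 had an unadjusted p under 0.05 in that direction with none in the other. Both CD8 PBS libraries exceeded both CD4 PBS libraries for 14 of the 20, beside 21.7% of all tested genes. The median log2 difference was -1.75, or -1.71 with genes at 0 held at their detection floor, beside 0 over all genes, and it was -0.89 without CD8 PBS replicate 2. Nkg7, a granule membrane protein needed for granule exocytosis, was at 2273 and 1121 in CD4 PBS against 29293 and 26686 in CD8 PBS, a log2 difference of -4.13 (SE 0.54, adjusted p = 0.00277). Neither pair overlapped and the CD8 libraries differed little from each other. Ctsw, which encodes the protease cathepsin W of killer cells, was at 4265 and 2342 against 18489 and 16314, a log2 difference of -2.46 (SE 0.41, adjusted p = 0.0113).

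Granzyme B sat at the limit of the call. Gzmb was at 547 and 131 in CD4 PBS against 4780 and 1072 in CD8 PBS, with a log2 difference of -3.08 (SE 0.66, adjusted p = 0.0497), and it was called in 7 of 22 alternatives. Within replicate 2 the log2 difference was -3.13 and within replicate 3 it was -3.03. In both lineages replicate 2 was the higher library. Prf1, which encodes the pore-forming protein perforin, was at 1427 and 1404 in CD4 PBS against 5663 and 3488 in CD8 PBS, and its log2 difference of -1.65 (SE 0.36) did not pass (adjusted p = 0.0529). Perforin mRNA was thus well above the floor in CD4 as well as CD8 cells. Srgn, encoding the granule proteoglycan serglycin, was at 6684 and 5884 against 8098 and 8518, and Lamp1 at 6673 and 6587 against 6301 and 6101, neither past the threshold. Without CD8 PBS replicate 2, 1 of the 20 genes (Nkg7) was called, and DESeq2 called 7 with all libraries.

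Of 28 receptors shared with NK cells, 6 were called, all CD8-high, beside 0.742% of all tested genes. Both CD8 PBS libraries lay above both CD4 PBS libraries for 22, beside 21.7% of all tested genes. The median log2 difference was -3.57, or -3.17 with genes at 0 held at the floor, and it was -2.53 without CD8 PBS replicate 2. Klre1, a lectin-like receptor, was at 0 and 5.28 in CD4 PBS against 654 and 220 in CD8 PBS (log2 difference -7.25, SE 0.87, adjusted p = 0.00166). Cd160, a receptor for HVEM on cytotoxic cells, was at 104 and 113 against 1886 and 1610 (a ratio of the means of 16.1, adjusted p = 0.00386). The Cd160 values were close within each group, and this gene and Klre1 were the 2 members still called without CD8 PBS replicate 2.

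Ly49 receptors, which bind MHC class I, and Klrc2 of the NKG2 family were also called. Klra6 was 0 in both CD4 PBS libraries and at 279 and 127 in CD8 PBS, at least 49.5-fold higher against the floor. Klra3 was 0 in CD4 PBS against 85.0 and 44.0 in CD8 PBS, at least 15.7-fold higher. Klra7 was at 8.20 and 1.32 against 1176 and 327, and Klrc2 at 1.37 and 1.32 against 520 and 127. For Klrc2 the CD4 values rested on 3 reads, and the ratio of the means was 242 with a 95% counting interval of 82.8 to 1174. In all of these CD8 PBS replicate 2 was the higher library, as it was for 27 of the 28 receptors. Klra genes resemble each other closely, and reads that map to several of them are lost when only unique alignments are kept. CD8 PBS replicate 3 lay above both CD4 PBS libraries for 22 of the 28 receptors, compared with 30.8% of all tested genes. The NK cell list summed higher in it than in CD4 PBS (5926 against 2372 and 1820), mostly through Prf1 (3488) and Eomes (1678). Both CD8 PBS libraries lay above both CD4 PBS libraries for 5 of the 10 NK cell markers, beside 21.7% of all tested genes. These 5 were Prf1, Eomes, Klra8, Klra9 and Fcer1g. In CD8 PBS replicate 3, Klra8 was at 26.66 against 0 in both CD4 PBS libraries. Klra9 was at 59.98 in it against 0 and 3.303, and Fcer1g at 166.6 against 129.8 and 75.96. Ncr1 (25.3 against 38.3 and 30.4) and Tyrobp (64.0 against 154 and 53.5) were not among these 5. Gzma, Klrb1c and Klra4 were not among them either. Klrd1, the CD94 partner of NKG2 receptors, was at 500 and 322 against 5575 and 4696 and did not pass (log2 difference -3.67, adjusted p = 0.0541). Eomes, a T-box factor of NK cells and of memory and effector CD8 T cells, was at 35.5 and 110 against 1804 and 1678. It did not pass either (adjusted p = 0.272). Both Klrd1 and Eomes were called in the fit to only the 10 CD4 and CD8 libraries and with a pseudocount of 10. Klrd1 was also called by DESeq2 and without CD4 DTx replicate 1.

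Of 27 chemokine and chemokine receptor genes, 3 were called, all of them ligands and all CD8-high, beside 0.742% of all tested genes. DESeq2 called 7 CD8-high, beside 1.79% of all tested genes in either direction. Ccl4, an inflammatory chemokine, was at 10.9 and 35.7 in CD4 PBS against 1621 and 902 in CD8 PBS (log2 difference -5.85, SE 0.70, adjusted p = 0.00161). Ccl3, a related chemokine, was at 41.0 and 25.8 against 1063 and 213 (log2 difference -3.83, SE 0.68, adjusted p = 0.0159), with both CD8 libraries above both CD4 libraries but far from each other. Ccl1, the ligand of CCR8, was 0 in CD4 PBS against 226 and 38.7 in CD8 PBS, at least 32.3-fold higher (adjusted p = 0.000868). Without CD8 PBS replicate 2, Ccl4 and Ccl1 were called and Ccl3 was not. Ccr7, a homing receptor for lymph nodes, was at 30630 and 34691 against 19947 and 28669, and Cxcr6 at 7748 and 3118 against 18430 and 11594, neither past the threshold.

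Proximal promoters of CD8-high genes were examined for letters that RUNX and T-box factors, which act in this lineage, are known to bind. The windows are the 250 bases before the start of a gene in RefSeq, build GRCm38.p6, in the gene's own direction, and 71 of the 94 CD8-high genes, 15 of the 21 CD4-high genes and 9390 of 12647 named tested genes had one. The RUNX letters TGTGGT, read on both strands, were present in 22 of 71 CD8-high windows (31.0%), 1 of 15 CD4-high windows (6.67%) and 11.4% of all windows. The T-box letters AGGTGT stood in 9.86%, 13.3% and 9.64%, the AP-1 letters TGANTCA in 5.63%, 13.3% and 4.17%, and the E-box letters CACGTG in 5.63%, 6.67% and 8.33% of the same sets. With every listed window of a gene counted instead of the first, RUNX letters stood in 28 of 89 CD8-high windows (31.5%). The shares were then 13.6% of CD4-high windows (3 of 22) and 11.4% of all, so the low CD4-high share depended on the window used. By the first windows, CD8-high genes had a median GC content of 55.2%, below the 59.6% of all. Within windows under 50% GC, a subset chosen after the data were seen, RUNX letters stood in 7 of 18 CD8-high windows (38.9%) and in 17.0% of all. These shares describe letters in a short window and were not tested. They do not show binding. No RUNX match overlapped a T-box match in the called genes.

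The windows of 4 CD8-high genes described above are shown because they carry these letters, in capitals on either strand (TGTGGT or ACCACA for RUNX, AGGTGT for T-box, TGAGTCA for AP-1).
Nkg7, chr7:43436888-43437137, plus strand: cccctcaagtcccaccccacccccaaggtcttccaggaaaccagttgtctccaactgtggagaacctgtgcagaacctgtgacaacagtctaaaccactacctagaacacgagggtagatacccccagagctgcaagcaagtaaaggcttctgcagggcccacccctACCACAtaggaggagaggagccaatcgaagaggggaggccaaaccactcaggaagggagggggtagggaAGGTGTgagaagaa
Gzmb, chr14:56262335-56262584, minus strand: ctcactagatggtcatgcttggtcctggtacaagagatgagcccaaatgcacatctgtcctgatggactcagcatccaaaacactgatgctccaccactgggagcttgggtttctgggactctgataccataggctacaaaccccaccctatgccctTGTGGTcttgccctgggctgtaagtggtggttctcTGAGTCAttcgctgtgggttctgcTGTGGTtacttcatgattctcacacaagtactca
Cd160, chr3:96829352-96829601, minus strand: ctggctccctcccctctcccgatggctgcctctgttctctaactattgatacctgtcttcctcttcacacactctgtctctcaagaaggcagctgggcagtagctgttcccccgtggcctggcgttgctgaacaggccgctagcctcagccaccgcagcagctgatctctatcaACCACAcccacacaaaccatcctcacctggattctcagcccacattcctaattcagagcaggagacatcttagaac
Ccl3, chr11:83649379-83649628, minus strand: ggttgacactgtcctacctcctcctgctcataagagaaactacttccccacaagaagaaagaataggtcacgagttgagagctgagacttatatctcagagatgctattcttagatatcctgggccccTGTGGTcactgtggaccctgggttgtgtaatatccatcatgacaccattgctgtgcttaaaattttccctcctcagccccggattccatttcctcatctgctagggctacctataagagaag
The Nkg7 window holds a RUNX match 83 bases and a T-box match 14 bases before the start, counted from the first letter of the match in the gene's direction, and Gzmb holds RUNX matches at 93 and 34 bases around an AP-1 match at 58 bases.

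**Figure D2:**
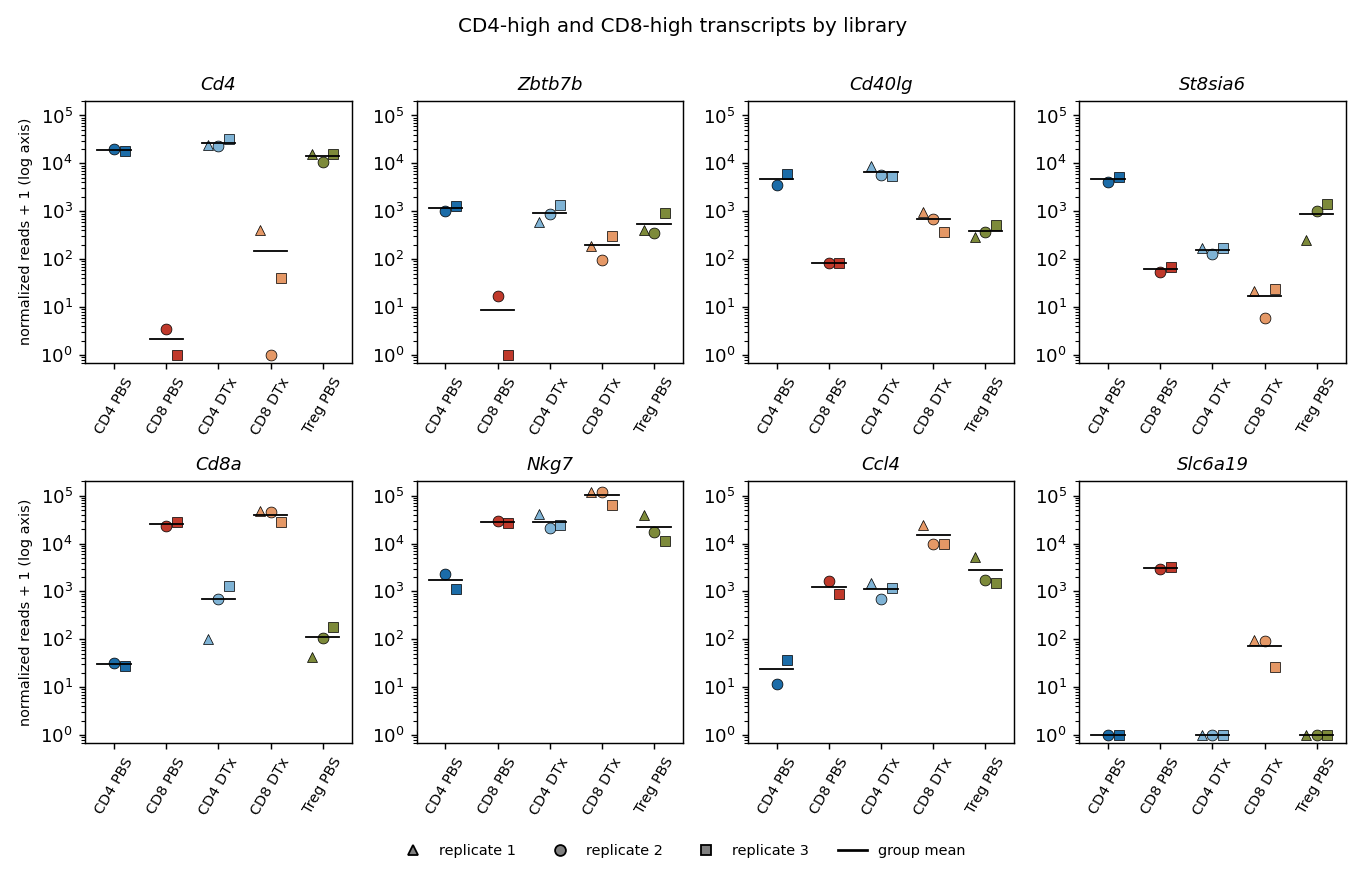
Normalized reads + 1 on a log axis of 4 CD4-high genes (top row) and 4 CD8-high genes (bottom row) in all 13 libraries by group, 1 point per library with a shape for each replicate number and a line at the group mean. In PBS the CD4 and CD8 libraries do not overlap in any panel, and St8sia6 and Slc6a19 are lower in DTx than in the PBS group that held most of them.

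Beyond the effector genes, the largest CD8-high differences were in genes that were low or at 0 in CD4 cells. Slc6a19, a transporter of neutral amino acids, was 0 in both CD4 PBS libraries and at 2962 and 3199 in CD8 PBS (log2 difference -11.59, SE 0.97, adjusted p = 0.00018), at least 751-fold higher. It was also 0 in all CD4 DTx and Treg PBS libraries. Haao, an enzyme of the kynurenine pathway of tryptophan breakdown, was 0 in CD4 PBS against 1014 and 1130 in CD8 PBS, at least 262-fold higher. Both genes were called in 22 of 22 alternatives. Adgrg5, an adhesion G protein-coupled receptor, was at 116 and 7.27 against 8073 and 9567 (log2 difference -8.14, SE 1.40, adjusted p = 0.0146). Eng, encoding the TGF-beta coreceptor endoglin, was at 0 and 1.98 against 463 and 459, with 3 reads behind the CD4 values and a ratio of 345 (95% counting interval 118 to 1672). Adgrg5 and Eng agreed closely between the 2 CD8 libraries but lost the call when either CD8 library was left out.

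Of the other leading CD8-high genes, Plekha6, Pdgfb, Adgrb2 and 2900026A02Rik were all at 0 in CD4 PBS, and their CD8 PBS values ranged from 115 to 377. Trim30c was at 0 and 0.661 against 191 and 315. Pdgfb encodes a growth factor chain that acts on mesenchymal cells. None of these 5 was called without CD8 PBS replicate 2, and Plekha6, Pdgfb and Trim30c were not called without replicate 3 either. By edgeR, Pdgfb had an adjusted p of 0.0477, and the adjusted p of the other 4 ranged from 0.0546 to 0.143. Cd163l1, a scavenger receptor of gamma-delta T cells, was at 12.3 and 0 in CD4 PBS against 1694 and 646 in CD8 PBS (log2 difference -8.17, SE 1.31, adjusted p = 0.0094), the only called member of the gamma-delta and NKT list, and it lost the call without CD8 PBS replicate 2.

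Of 17 integrin genes, 2 were called, both CD8-high, beside 0.742% of all tested genes. Itgae, the CD103 chain that binds E-cadherin on epithelia, was at 791 and 130 in CD4 PBS against 8515 and 6974 in CD8 PBS (log2 difference -4.58, SE 0.84, adjusted p = 0.0195). Its partner Itgb7 was at 32761 and 31027 against 30010 and 33373. Itgax, the CD11c chain found on dendritic cells and on activated T cells, was 0 in CD4 PBS against 502 and 109 in CD8 PBS, at least 74.5-fold higher, and no other dendritic cell marker among the 10 tested was called. The dendritic list summed to 2822 and 1362 in CD4 PBS against 5365 and 1425 in CD8 PBS, and the myeloid list to 1815 and 2039 against 2961 and 925, and their part in the Itgax difference was not tested. Among 28 cytokine receptor genes 1 was called, CD8-high, beside 0.742% of all tested genes. Il2rb, the beta chain of the IL-2 and IL-15 receptors, was this gene, at 5515 and 2563 against 23630 and 13488 (log2 difference -2.25, SE 0.39, adjusted p = 0.015). Il2rg, the chain it pairs with, was at 23500 and 25041 against 23860 and 23513, and Il7r at 21819 and 15339 against 16930 and 11987. Itgae, Itgax and Il2rb were not called without CD8 PBS replicate 2, nor Itgae without replicate 3.

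CD4-high genes were fewer and included the CD40 ligand. Cd40lg, through which CD4 helper cells activate B cells and dendritic cells, was at 3530 and 5922 in CD4 PBS against 82.6 and 81.3 in CD8 PBS (log2 difference 5.78, SE 0.45, adjusted p = 0.00012). In Treg PBS it was at 285, 378 and 524, between the Tconv groups. Of 26 helper genes, 2 were called, both CD4-high, beside 0.166% of all tested genes. The median log2 difference was 0.77, or 0.37 with genes at 0 held at the floor. The other was Il1rl1, the IL-33 receptor ST2, at 84.7 and 41.6 in CD4 PBS and 0 in CD8 PBS, at least 15.8-fold higher (adjusted p = 0.00023). Its level in CD4 PBS was low beside Treg PBS, where it ranged from 1138 to 1470. Izumo1r, the folate receptor 4 of Treg and anergic CD4 cells, was at 1865 and 1786 against 541 and 520 and did not pass (adjusted p = 0.342). Both Cd40lg and Il1rl1 were called with either CD8 PBS library left out.

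St8sia6, a sialyltransferase, was at 4079 and 5326 in CD4 PBS against 53.5 and 69.3 in CD8 PBS (log2 difference 6.24, SE 0.81, adjusted p = 0.00271), and was called in 22 of 22 alternatives. Myo10, an unconventional myosin of filopodia, was at 619 and 789 against 1.21 and 0, with 1 read behind the CD8 values and a ratio of 1108 (95% counting interval 199 to 43759). L1cam, a cell adhesion molecule, was at 1629 and 1170 against 301 and 119 (log2 difference 2.86, SE 0.52, adjusted p = 0.0198). Irak3, a brake on IL-1 and Toll-like receptor signals, was at 359 and 241 against 36.4 and 1.33 (adjusted p = 0.0406), and Ckb, brain-type creatine kinase, at 571 and 734 against 190 and 72.0 (adjusted p = 0.0288). Cd200r1, an inhibitory receptor for CD200, was at 912 and 1158 against 300.1 and 143 (adjusted p = 0.0433), and Tesc at 1834 and 1492 against 349 and 485 (adjusted p = 0.0108). The last 5 genes were called in between 10 and 16 of 22 alternatives, and Irak3 lost the call in most of them. Tesc and Cd200r1 were not called without CD8 PBS replicate 2, nor L1cam, Irak3, Ckb and Cd200r1 without replicate 3.

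The Ly6C genes, neighbours on chromosome 15 that encode a surface marker of memory and effector T cells, went in opposite directions. Ly6c1 was at 4210 and 4249 in CD4 PBS against 64.4 and 24 in CD8 PBS (log2 difference 6.71, SE 0.61, adjusted p = 0.000281). Ly6c2 was at 1178 and 419 in CD4 PBS against 21307 and 24135 in CD8 PBS (log2 difference -5.01, SE 0.73, adjusted p = 0.00563). In each gene the groups were far apart beside the spread within them. The genes are close copies, and how reads shared by both were counted beyond the use of unique alignments is not stated, so the share of each is uncertain. Both were called with either CD8 PBS library left out. Their promoter windows, shown because the genes are copies with opposite differences, differed in the RUNX letters, which stand 179 bases before the start of Ly6c2 and nowhere in the Ly6c1 window.
Ly6c2, chr15:75111972-75112221, minus strand: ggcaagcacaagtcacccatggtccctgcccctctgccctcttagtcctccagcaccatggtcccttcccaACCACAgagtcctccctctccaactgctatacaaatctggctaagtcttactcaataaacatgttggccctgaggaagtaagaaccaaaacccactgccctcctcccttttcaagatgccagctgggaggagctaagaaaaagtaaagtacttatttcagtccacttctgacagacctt
Ly6c1, chr15:75048838-75049087, minus strand: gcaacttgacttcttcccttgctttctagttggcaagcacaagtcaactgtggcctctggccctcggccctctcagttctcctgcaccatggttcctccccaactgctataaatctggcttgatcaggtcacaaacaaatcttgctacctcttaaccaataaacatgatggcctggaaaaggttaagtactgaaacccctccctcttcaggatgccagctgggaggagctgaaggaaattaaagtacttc

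Inhibitory receptors had calls in both directions. Of 14 inhibitory receptors, Cd200r1 was called CD4-high and Havcr2 and Cd160 CD8-high, beside 0.166% and 0.742% of all tested genes. Havcr2, encoding the exhaustion marker TIM-3, was at 68.3 and 46.9 in CD4 PBS against 767 and 187 in CD8 PBS (log2 difference -2.72, SE 0.51, adjusted p = 0.0224), and was not called without CD8 PBS replicate 2. Pdcd1, encoding PD-1, was at 2448 and 845 against 3555 and 1389, with a higher value in replicate 2 of both lineages (adjusted p = 1). Cd5, a brake on T cell receptor signalling, was at 10941 and 10994 against 4428 and 5225. Its adjusted p was 0.0161 and its log2 difference of 1.19 lay under the 4-fold threshold. None of 14 costimulatory receptors was called by limma, edgeR or DESeq2, with 4 higher in CD4 PBS and 1 in CD8 PBS at an unadjusted p under 0.05. Cd28 was at 10822 and 11308 against 4744 and 3907, a log2 difference of 1.36 (adjusted p = 0.0483) that was also under 4-fold.

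Among 22 effector and exhaustion factors 1 was called, CD8-high, beside 0.742% of all tested genes. Irf8, a factor of dendritic cells that activated CD8 T cells also express, was this gene. Irf8 was at 261 and 301 in CD4 PBS and 2073 and 642 in CD8 PBS (log2 difference -2.04, SE 0.42, adjusted p = 0.0417). It was called in 11 of 22 alternatives, and without CD8 PBS replicate 2 its log2 difference was -1.19 and it was not called. Tox was at 2016 and 2716 against 2280 and 1834, and Id2 at 7449 and 5320 against 7969 and 6052. Among 24 naive and memory genes the Ly6C pair was all that was called, 1 in each direction, beside 0.166% (CD4-high) and 0.742% (CD8-high) of all tested genes.

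The T cell receptor pathway held no called gene. None of 30 genes was called by limma, 3 were CD4-high at an unadjusted p under 0.05, edgeR called none and DESeq2 called 1, and the median log2 difference was 0.10. Lck was at 54849 and 58954 against 51977 and 59630, and Cd3e at 20311 and 23783 against 21023 and 20971. None of 32 interferon-stimulated genes was called by limma, edgeR or DESeq2, with 2 CD4-high and 3 CD8-high at an unadjusted p under 0.05. None of 40 cell cycle genes was called by limma or edgeR and 1 by DESeq2. Their median log2 difference was -1.10, or -0.35 without CD8 PBS replicate 2, 9 had an unadjusted p under 0.05, all CD8-high, and 21 were higher in both CD8 PBS libraries than in both CD4 PBS libraries, beside 21.7% of all genes. Of the 40, 37 were higher in CD8 PBS replicate 2 than in replicate 3. None of the 27 immediate early genes was called by limma, edgeR or DESeq2, with 2 at an unadjusted p under 0.05, and Fos was at 5052 and 54781 against 3397 and 54646.

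Of the marker lists for other cells, 1 of 7 B cell genes was called, CD8-high, beside 0.742% of all tested genes. Cd79b was this gene, at 77.9 and 37.0 in CD4 PBS against 725 and 746 in CD8 PBS (adjusted p = 0.0228). It was not called by edgeR, nor with either CD8 PBS library left out. The B cell list summed to 398 and 236 in CD4 PBS against 1575 and 1032 in CD8 PBS. Cd79b and Blk made up most of the CD8 PBS sums. Blk, also on the gamma-delta and NKT list, was at 443 and 17.3 there. Among 10 NK cell markers none was called by limma, edgeR or DESeq2, although 6 were CD8-high at an unadjusted p under 0.05. Among 9 gamma-delta and NKT markers DESeq2 called 4, beside 1.79% of all tested genes. No gene was called among 10 Treg, 15 myeloid, 8 erythroid, 8 melanocyte and 3 stromal or endothelial markers, nor by edgeR, and DESeq2 called 1 melanocyte marker. At an unadjusted p under 0.05 these lists held 2, 0, 0, 1 and 2 genes.

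**Figure D3:**
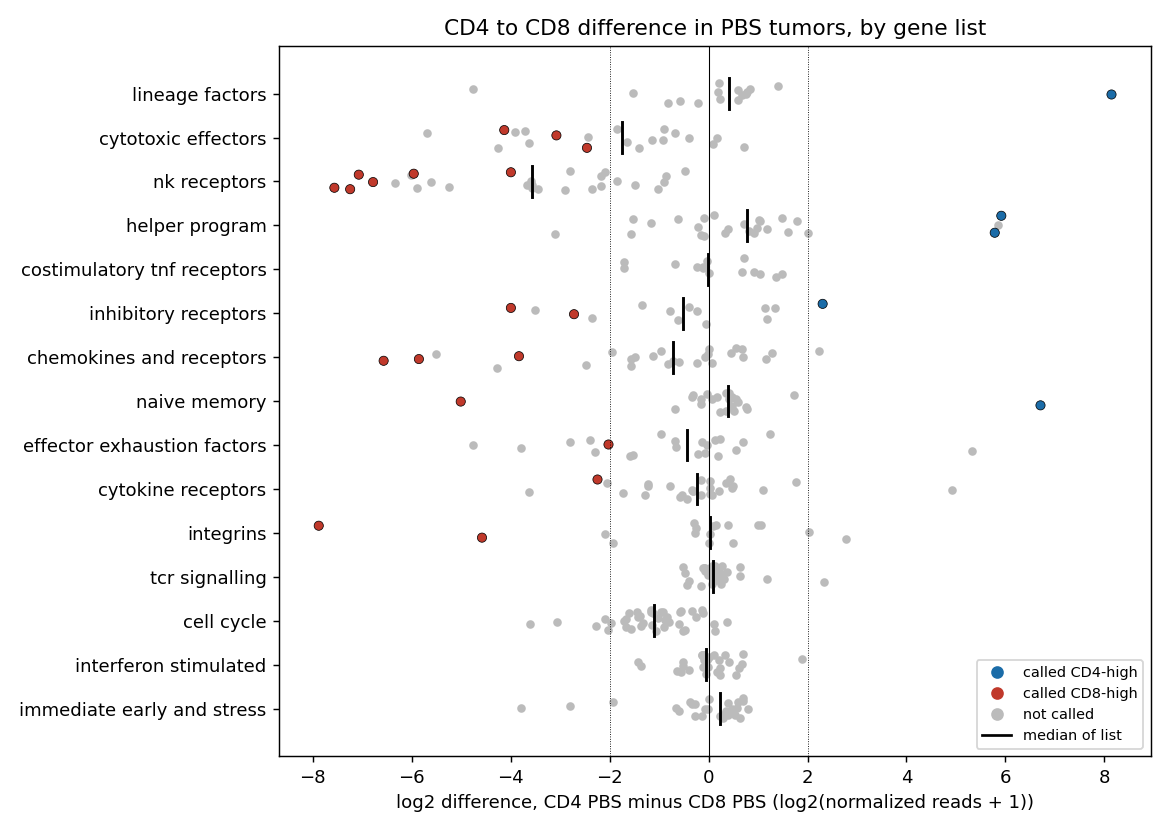
Log2 differences (CD4 minus CD8, PBS) of the members of each gene list, 1 point per gene, with called CD4-high genes in blue, called CD8-high genes in red, a bar at the median of each list and dotted lines at 4-fold. The vertical spread of points within a list has no meaning. NK receptors have a median of -3.57 and cytotoxic effectors of -1.75, whereas the T cell receptor pathway lies at 0.10.

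Whether the lineage differences were also present without Treg cells was examined in CD4 DTx and CD8 DTx, which share no library with the PBS comparison but share its estimate of the spread. There 127 genes were called, 54 CD4-high (0.426%) and 73 CD8-high (0.576%). Of the 21 CD4-high genes of PBS, 6 were called the same way (28.6%), and of the 94 CD8-high genes, 20 (21.3%), with none called the opposite way. These 26 genes were 11.1% of the CD4-high and 27.4% of the CD8-high genes of DTx. The sign was the same in 19 of 21 and 85 of 94. Over all tested genes the log2 differences of PBS and DTx correlated at r = 0.407, across genes that are not independent. The median log2 difference of the CD4-high genes was 5.74 in PBS and 1.94 in DTx and that of the CD8-high genes -4.56 and -1.38. The genes were chosen on their PBS values, a choice that by itself favours larger differences in PBS.

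The 6 CD4-high genes called in both were Cd4, Cd40lg, St8sia6, Il1rl1, Ptgir and Vill. Cd40lg was at 8937, 5818 and 5502 in replicates 1, 2 and 3 of CD4 DTx and at 989, 688 and 374 in CD8 DTx (log2 difference 3.38, SE 0.36, adjusted p = 0.000919). Every CD4 DTx library exceeded every CD8 DTx library. Il1rl1 was at 1886, 5156 and 3487 against 217, 320 and 353 (log2 difference 3.47, adjusted p = 0.00235), so that it was higher in both lineages than in PBS while the order of the lineages held. St8sia6 was at 167, 126 and 167 against 21.2, 4.82 and 22.9, far below the 4079 and 5326 of CD4 PBS. Ptgir, the prostacyclin receptor, and Vill were named after their values were seen, and both were 0 in CD8 PBS and above 0 in all CD8 DTx libraries.

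The 20 CD8-high genes called in both were Cd8a, Cd8b1, Gzmb, Ccl3, Ccl4, Cd160, Klre1, Klra3, Klra6, Klra7, Ly6c2, Slc6a19, Adgrb2, 2900026A02Rik, Plek, Rcn3, Usp11, Gpr160, Tm6sf1 and Samd3, the last 6 of which were named after their values were seen. Of those 6, Rcn3 and Samd3 were not called in PBS without CD8 PBS replicate 2. Gzmb was at 13630, 8324 and 10438 in CD4 DTx and at 104756, 80348 and 65338 in CD8 DTx (log2 difference -2.95, SE 0.54, adjusted p = 0.0211). The Gzmb difference was close to that of PBS, although levels were higher in both lineages, and the DTx groups did not overlap. Klra3 and Klra6 were 0 in all CD4 DTx libraries, as in CD4 PBS. Slc6a19 was at 96.1, 93.4 and 25.6 in CD8 DTx, compared with 2962 and 3199 in CD8 PBS. Tm6sf1 had the smallest error of these genes, at 210 and 288 against 2248 and 2179 in PBS and with a log2 difference of -3.16 (SE 0.25, adjusted p = 0.00012), and of -2.71 (SE 0.20, adjusted p = 6.88e-05) in DTx.

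In DTx, 9 of 28 NK receptors and 4 of 20 cytotoxic genes were called, all CD8-high, beside 0.576% of all tested genes, and 10 of 26 helper genes, all CD4-high, beside 0.426%. The NK cell list summed to 54025, 131765 and 51598 in CD8 DTx against 3070, 4064 and 4724 in CD4 DTx. Most of the CD8 DTx sums came from Gzma (39350, 99846 and 30230) and Prf1 (12785, 17976 and 14992). CD8 T cells express both of these genes too. Ncr1 was at 17.6, 2147 and 599 in CD8 DTx against 89.8, 115 and 26.3 in CD4 DTx, and so was not higher in replicate 1. The part of NK cell transcripts in these counts was not tested. Zbtb7b was not called in DTx, where it was at 592, 865 and 1375 in CD4 DTx and at 184, 94.4 and 306 in CD8 DTx (log2 difference 2.34, SE 0.84, adjusted p = 0.251). The difference between PBS and DTx for Zbtb7b did not pass (5.79, SE 1.33, adjusted p = 0.251). All Treg PBS libraries lay above both CD8 PBS libraries for 20 of the 21 CD4-high genes, beside 29.7% of all tested genes, and below both for 50 of the 94 CD8-high genes, beside 28.2%. The genes were chosen for low or high values in CD8 PBS, so these positions follow in part from the choice.

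**Figure D4:**
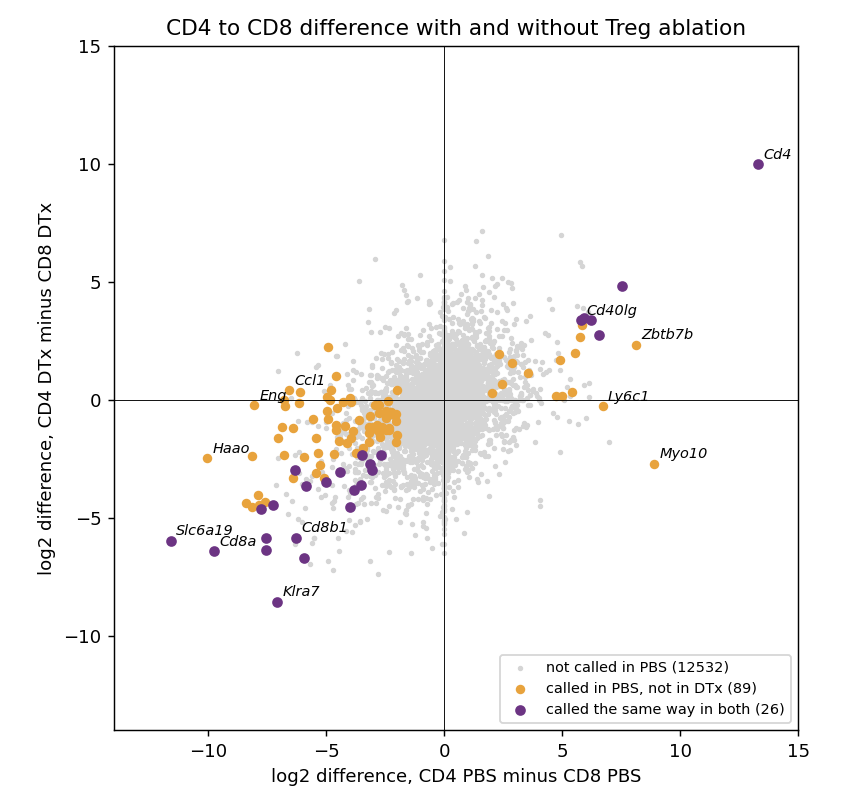
Log2 difference between CD4 and CD8 libraries in PBS (horizontal axis) and in DTx (vertical axis) for the named tested genes, 1 point per gene, with genes called in both in purple and those called in PBS and not in DTx in orange. The 26 genes called in both lie in the quadrants of equal sign, and the 89 others called in PBS include genes near 0 in DTx, among them Ly6c1 (6.71 and -0.28).

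The difference of the lineage differences was tested as an interaction (PBS minus DTx), and 6 genes passed (0.0474%): Ly6c1, Scin, Ccl1, Fam20a, Myo10 and Prf1. At an unadjusted p under 0.05, 513 of the 12667 genes passed, fewer than the 633 expected by chance if no gene differed. The first 5 were called in PBS too, so 5 of the 89 genes called in PBS and not in DTx passed the interaction test. For the others a difference between the treatments was not shown. No gene passed when either CD4 PBS library was left out, edgeR called 4 and DESeq2 70.

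Ly6c1 was at 649, 844 and 531 in CD4 DTx and at 512, 1596 and 633 in CD8 DTx, overlapping ranges, whereas in PBS the lineages lay far apart (interaction 6.99, SE 0.79, adjusted p = 0.0146). Prf1 went the other way, with 360, 546 and 819 in CD4 DTx against 12785, 17976 and 14992 in CD8 DTx (log2 difference -4.79, SE 0.29, adjusted p = 1.54e-05) and an interaction of 3.14 (SE 0.46, adjusted p = 0.0447). CD4 DTx libraries were all below CD4 PBS and CD8 DTx libraries all above CD8 PBS for Prf1. Ccl1 was at 1634, 1340 and 1647 in CD4 DTx and at 1335, 1072 and 1053 in CD8 DTx, so that the chemokine that was 0 in CD4 PBS was at similar levels in both lineages (interaction -6.99, SE 0.92, adjusted p = 0.0281).

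Fam20a, a secretory pathway pseudokinase, showed the pattern of Ccl1. It was 0 in CD4 PBS against 49.8 and 14.7 in CD8 PBS, and at 1167, 889 and 938 in CD4 DTx against 1004, 555 and 752 in CD8 DTx (interaction -5.22, SE 0.73, adjusted p = 0.0354). Scin, an actin-severing protein, was 0 in CD4 PBS, at 54.7 and 16.0 in CD8 PBS, at 426, 187 and 412 in CD4 DTx and at 48.0, 74.2 and 86.1 in CD8 DTx, where all CD4 libraries lay above all CD8 libraries (interaction -7.17, SE 0.96, adjusted p = 0.0281). Its PBS difference was not called without CD8 PBS replicate 2. Myo10 was at 102, 6.13 and 5.27 in CD4 DTx and at 163, 30.8 and 242 in CD8 DTx, overlapping, after 619 and 789 against 1.21 and 0 in PBS (interaction 11.58, SE 1.73, adjusted p = 0.0447).

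**Figure D5:**
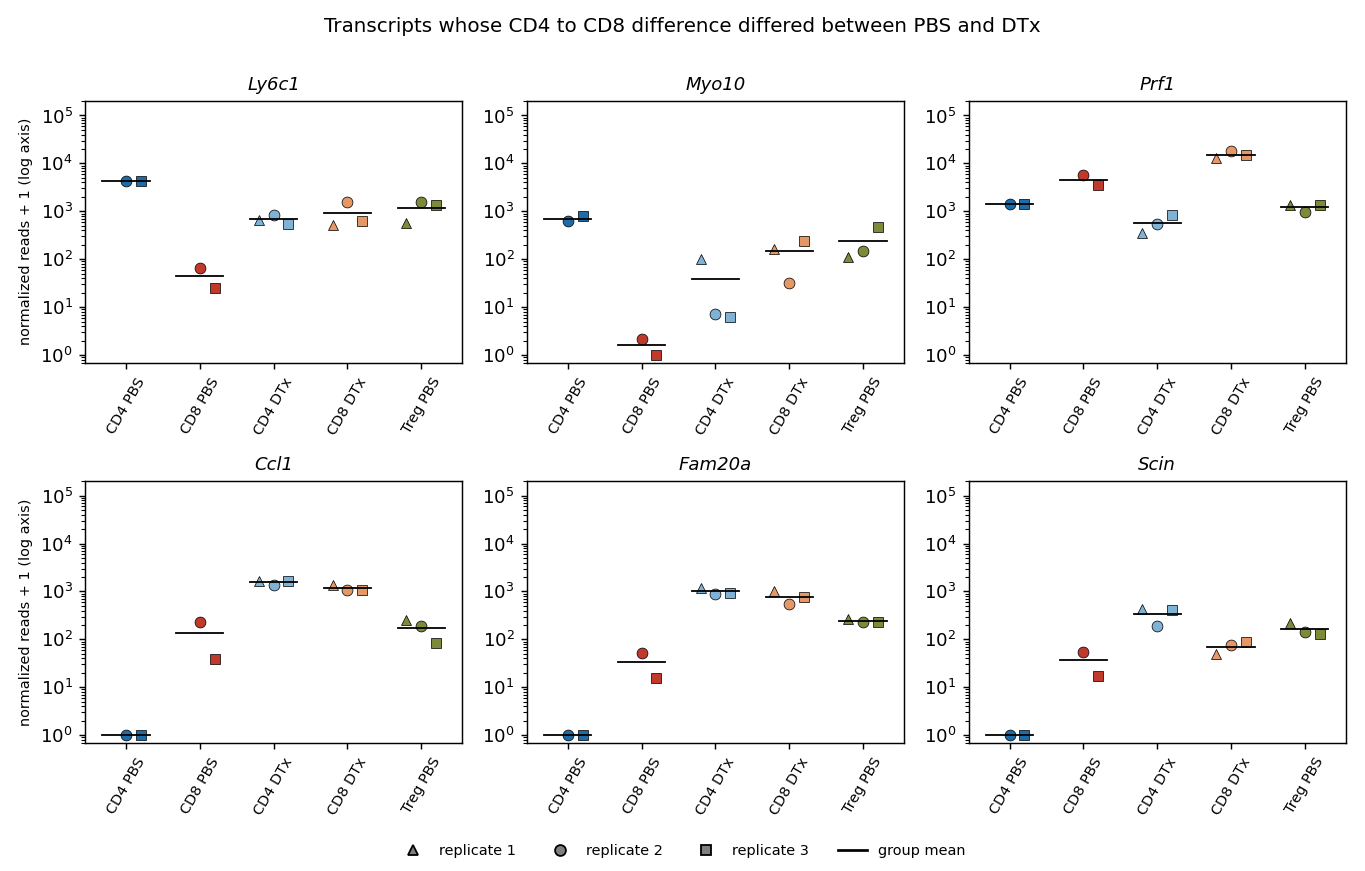
Normalized reads + 1 on a log axis of the 6 genes with a called interaction in all 13 libraries by group, 1 point per library with a shape for each replicate number and a line at the group mean. Ly6c1 separates the lineages in PBS and overlaps in DTx, and Prf1 is further apart in DTx (360 to 819 against 12785 to 17976) than in PBS (1404 to 1427 against 3488 to 5663).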

How the data were processed

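RNA was sequenced from T cells sorted from B16-F10 tumors, in 13 libraries of 5 groups taken from the sample titles. Following the labels and methods of the study, RNA was extracted, and the authors made low-input SMART-type libraries, trimmed adaptors with Cutadapt after FastQC, aligned with hisat2 to NCBIM37 (mm9) and kept uniquely mapped reads. The counter, its strand setting and versions are not given in the sources used here. The authors deposited 1 table of normalized signal per gene and library, named FPM and normalized to library size with an intergenic step. All values (100% in each library) came out as whole numbers of reads within a tolerance of 0.01 read, so whole reads were recovered (15947556 to 34140486 per library). A floor of 3 reads was used for detection, and counting intervals (exact Poisson) cover counting error only, since the labels name no molecular identifiers. Symbols of 21 rows had become dates, and these rows were tested but not named.

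Genes reaching 10 normalized reads in 2 libraries (12667 of 12963) were fitted as log2(value + 1) with limma 3.58.1 (eBayes with trend) in R 4.3.3 over all 13 libraries, 1 mean per group, so that groups of 2 share an estimate of the spread. A call needed an adjusted p (Benjamini-Hochberg) under 0.05 and over 4-fold. Fold changes on this scale understate the change of low genes, and against a group at 0 the fold is a lower bound against the floor. The interaction is the PBS difference minus the DTx difference. edgeR 4.0.16 (quasi-likelihood) and DESeq2 1.42.0 were run on recovered reads as alternatives, and the fits were checked on simulated data. Same-numbered DTx libraries deviated together (r = 0.360, 0.207 and 0.590 for numbers 1, 2 and 3), a pairing seen in the data. The study states that replicates came from separate days, but neither it nor the labels tie the numbers to days.

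The genes compared, the gene lists and the tests were chosen with earlier results of these data known. Named genes were 6 label checks, the 12 largest called differences in each direction with a mean of at least 200 normalized reads, called members and the 4 highest uncalled members of each list, and genes called in the interaction. Promoter windows came from RefSeq (GRCm38.p6), a build other than the authors', and no gene coordinates are given. Where a gene had several windows the first listed was used.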

Additional observations from a re-analysis of the deposited data

Results flagged for a closer look

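The lineage difference (log2, CD4 minus CD8) of 6 genes differed between PBS and DTx by a test of the difference itself. The difference of differences (PBS minus DTx) was 6.99 for Ly6c1, 11.58 for Myo10, 3.14 for Prf1, -6.99 for Ccl1, -5.22 for Fam20a and -7.17 for Scin, with adjusted p-values from 0.0146 to 0.0447 by limma. None of them passed when either CD4 PBS library was left out. The 6 genes were chosen by passing this test, so the size of their differences is a description. Groups of 2 and 3 libraries were too small for a test of single outlying libraries.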

How the results depend on the processing

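Of 3349 values of named genes under the alternatives, 3098 kept their side of the threshold, 237 lost the call, 14 gained it and no called value changed sign. The main counts were 115 genes in PBS (21 CD4-high, 94 CD8-high), 127 in DTx and 6 in the interaction, and the shares of PBS calls called alike in DTx were 28.6% (CD4-high) and 21.3% (CD8-high). DESeq2 on recovered reads gave 227 (36 and 191), 233 and 70. edgeR gave 12 CD4-high genes in PBS, 76 in DTx and a CD4-high share of 58.3%. With only the libraries of the groups compared, the counts were 34 (11 and 23) and 59, and the shares 0% and 13.04%; the interaction was not run separately there. A fit to the 10 CD4 and CD8 libraries moved the CD8-high share to 40.0%, and a pseudocount of 10 moved it to 33.7% and the mean correlation of CD4 with CD8 PBS libraries from 0.917 to 0.951. Without the fold threshold 208 genes passed in DTx, and without the trend 12 in the interaction. The causes were not tested. Leaving out 1 library at a time gave 57 to 133 genes in PBS (11 to 32 CD4-high, 25 to 108 CD8-high), 51 to 131 in DTx, 0 to 14 in the interaction, and shares of 15.8% to 54.5% (CD4-high) and 15.3% to 44.0% (CD8-high). The lowest PBS count came without CD8 PBS replicate 2 and the lowest DTx count without CD4 DTx replicate 2, and where a group was left with 1 library, that library was assumed to vary like the other groups. In PBS, the deviations of same-numbered CD4 and CD8 libraries correlated at r = 0.189. With 2 libraries a group the deviations mirror each other, so both pairs give this 1 value and it cannot settle a pairing. The shared numbers come from the sample titles. With a replicate block 133 genes were called in PBS (25 and 108), 179 in DTx and 9 in the interaction. The block moved these counts by no more than 1.5 times, though negative interaction calls went from 3 to 6 and the CD4-high share called alike in DTx to 40.0%. Depth limits folds against groups at or under 3 reads a library, which are bounds or carry wide counting intervals.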
